A study of Mus musculus with 12 samples.

Results

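The comparison described here asks whether muscle lacking cellular Feimin answers a bout of running as WT muscle does. For each gene, the response to the run (exercised against sedentary) in cFeimin MKO muscle was set against the response in WT muscle, and the value reported is the MKO response minus the WT response on the log2 scale. A negative value therefore stands for a weaker rise or a deeper fall in MKO muscle, and a positive value for a stronger rise or a shallower fall. All 12 libraries of the study entered, and the genes were the 14590 of 43432 in the count table with at least 10 counts in 3 or more libraries. The tissue was gastrocnemius, the large calf muscle, of male mice. WT mice were fl/fl, that is, floxed at both alleles without the knockout, and cFeimin MKO mice (MKO below) were their littermates with cellular Feimin knocked out. The sources used here give no Cre driver or promoter, no ages and no interval between run and harvest. Sedentary WT, exercised WT, sedentary MKO and exercised MKO held 3 libraries each. The exercised mice had run for 90 min at 60% of maximal speed. Each library is labelled as a separate sample, with no word on separate animals, so the p-values rest on the spread between libraries alone.

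Contracting muscle first transcribes immediate-early genes, which need no new protein to be switched on: AP-1 factors of the FOS and JUN families, EGR zinc-finger factors and NR4A orphan nuclear receptors. Calcium, cyclic AMP and MAP kinase signals drive them, and they in turn change genes of fuel choice, glucose handling and repair. Muscle at rest and in fasting burns fat and blocks pyruvate oxidation through pyruvate dehydrogenase kinases; the balance shifts with work, feeding and insulin.

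The libraries held 14324010 to 14563501 counts. The gene taken to encode Feimin, B230219D22Rik (chromosome 13, 55693124 to 55703500, plus strand, GRCm38; the labels name no gene, so the match rests on background knowledge), stood at 21.7 to 24.1 CPM (counts scaled to a common library size) in sedentary and 21.6 to 30.2 in exercised WT libraries. In MKO libraries it stood at 3.62 to 6.14 and 3.51 to 4.58, so every MKO library lay below every WT library. Its own response to the run differed by -0.45 between the genotypes (unadjusted p = 0.105, edgeR quasi-likelihood test). Fast-muscle genes were abundant, with the fast calcium pump gene Atp2a1 at 18810.0 to 26420.0 CPM in sedentary WT and a mean log2 CPM of 12.5 to 13.0 over the fast-fibre list in the 12 libraries. Along the first principal component, which held 32.4% of the variance, exercised WT libraries lay at 33.3, 35.5 and 40.1 and exercised MKO replicates 1, 2 and 4 at 12.5, 28.5 and 12.4, with all sedentary libraries between -30.7 and -21.1. Sedentary MKO replicate 3 stood apart from the rest in slow-fibre genes, with a mean log2 CPM of 3.30 over the list against 5.06 to 6.52 in the other 11 libraries, and had the lowest share of mitochondrial counts, 16.9% against 20.1% to 24.3%.

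No gene passed a Benjamini-Hochberg adjusted p of 0.05 for the difference between the responses: 0 of 14590 (0%) by edgeR. Unadjusted, 542 genes had p under 0.05 (3.71% of those tested), 337 of them with a negative value (2.31%) and 205 with a positive one (1.41%). DESeq2 called 3 genes (Egr1, Lgals8 and a predicted gene) and limma-voom 4 (Lgals8, Bex4, Cpt1c and Gal). Lgals8 had the smallest adjusted p by edgeR, 0.0655, and Egr1 had 0.258. The single-gene differences below are therefore values with their intervals, not calls, whereas the response within each genotype is given with its own adjusted p from the same edgeR fit.

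Shared responders, risers and fallers below, were taken from the response averaged over WT and MKO. The weights of this contrast are orthogonal to those of the difference in this balanced design. The 2 estimates need not be independent for a gene whose SE differs between the genotypes, such as Lgals8 (0.34 in WT and 0.25 in MKO). A call on the average does not show a response in each genotype. It called 1969 genes (13.5%), of which 908 rose (6.22%) and 1061 fell (7.27%). The response was smaller in MKO for 1437 of them (73.0%), larger for 531 (27.0%) and opposite for 1, Lgals8. Scaling by total counts, which moved the median response of all genes to -0.10 in WT and -0.15 in MKO, gave a smaller share of 63.8% and turned the split of calls from 46.1% to 23.1% risers, so rises and falls below are relative to the bulk of genes. Selection on the average leaves little room for the opposite class. Over all genes with the same sign in both genotypes the smaller share was 59.4%, and over the genes not called for the average it was 56.0%. Risers had a median response of 0.84 in WT and 0.62 in MKO, and 76.9% rose less in MKO. Fallers had medians of -0.73 and -0.59, and 69.7% fell less.

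The share with a smaller response in MKO was greater among strong responders. It was 70.9% for the 604 genes with an averaged change under 0.5 log2 units, 68.5% for 825 genes from 0.5 to 1, 80.9% for 409 genes from 1 to 2, and 86.3% for the 131 genes above 2, whose median response size was 3.02 in WT and 2.25 in MKO. The median MKO minus WT difference of the risers was -0.0031 in sedentary and -0.20 in exercised muscle, and that of the fallers 0.02 and 0.16. Such medians do not show that single genes were alike at rest. Along the second principal component (15.2% of the variance) sedentary WT libraries lay at 12.1, 11.7 and 25.8. Sedentary MKO libraries lay at -8.25, 1.54 and -15.3. Within WT alone 1191 genes passed (8.16%; 4.2% rose and 3.96% fell) and within MKO alone 585 (4.01%; 2.25% and 1.75%), the latter count being 319 without exercised MKO replicate 2 and 344 without sedentary MKO replicate 2. The 500 genes that passed in both were 42.0% of the WT list and 85.5% of the MKO list, and all 500 moved the same way in both. A list picked in one genotype tilts toward a larger value there. Even so, 375 of the 585 genes called in MKO (64.1%) had a smaller response in MKO than in WT, as had 1042 of the 1191 called in WT (87.5%).

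**Figure D1:**
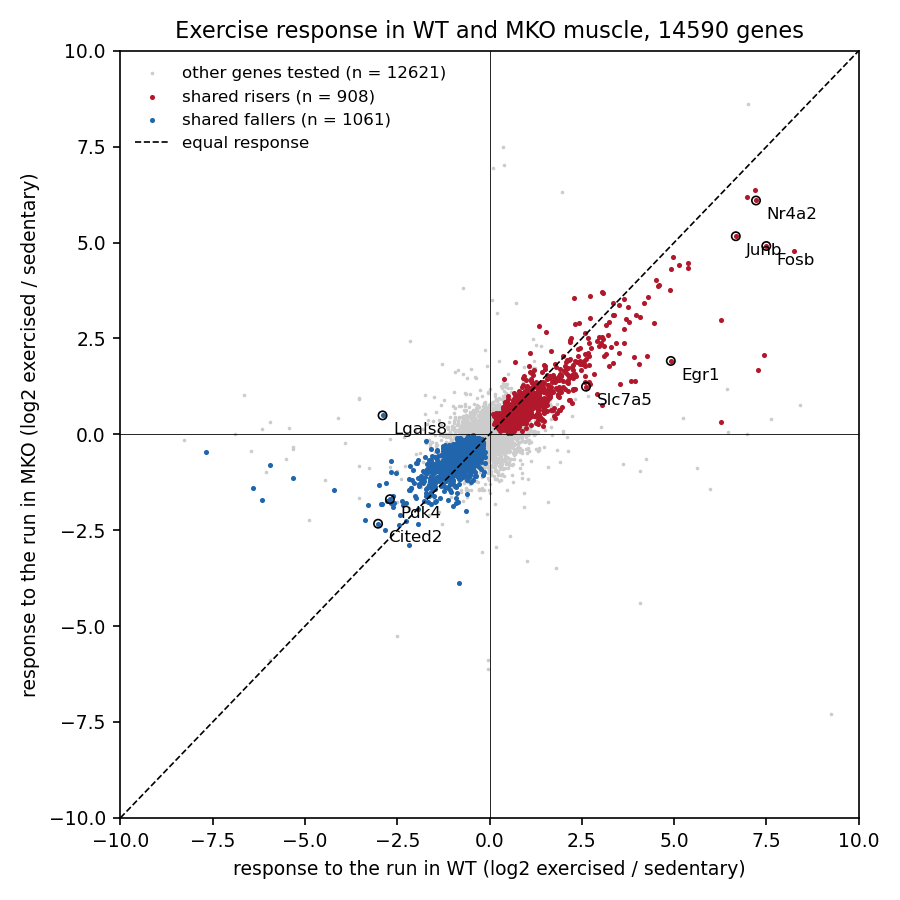
Response to the run in WT (x axis) and MKO muscle (y axis) as log2 exercised over sedentary, 1 point per gene, 14590 genes of which 2 lie outside the axes; red and blue points are genes called for the response averaged over the genotypes and the dashed line marks equal responses. Most red points lie below the dashed line and most blue points above it, that is, nearer to 0 in MKO, and Lgals8 is the lone coloured point in the upper left quadrant.

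Per library, the mean log2 CPM of the 908 risers was 2.90, 2.85 and 2.82 in sedentary WT, 2.98, 2.81 and 2.84 in sedentary MKO, 3.90, 3.88 and 4.06 in exercised WT against 3.64, 3.83 and 3.65 in exercised MKO (values run in the order of the replicate numbers here and below). The separation of exercised from sedentary libraries follows from how the genes were chosen. Between the exercised groups, which the choice did not set apart, the 3 MKO libraries lay below the 3 WT libraries without overlap, MKO replicate 2 only narrowly. The 1061 fallers gave 1.96, 1.94 and 2.02 in exercised WT against 2.26, 2.05 and 2.15 in exercised MKO, again without overlap. Exercised MKO replicate 2 was thus the MKO library nearest to WT and replicates 1 and 4 the more distant ones. Without exercised MKO replicate 1 the smaller share fell to 63.3%, and that of the fallers to 56.3%. Without sedentary MKO replicate 1 the share of risers that rose less was 63.2%.

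**Figure D2:**
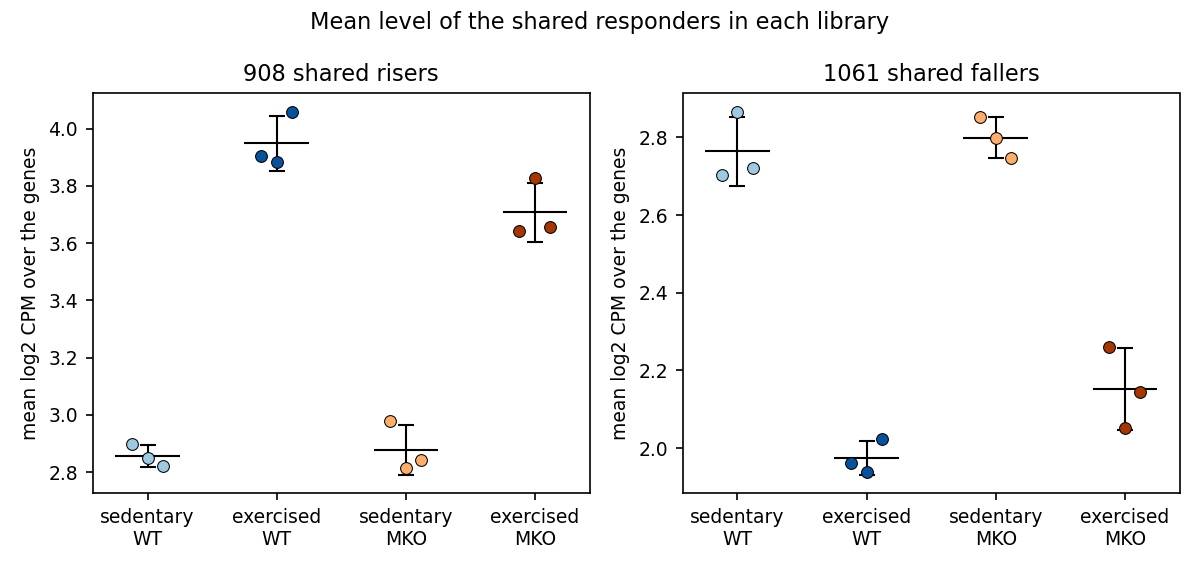
Mean log2 CPM of the shared risers (left) and shared fallers (right) in each library; points are libraries, long bars group means and error bars SD (n = 3). In both panels the sedentary genotypes overlap, whereas the exercised MKO libraries lie between the sedentary libraries and exercised WT.

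Of the genes with the smallest p for the difference, those described next rose in WT and had a smaller value in MKO. Egr1 (chromosome 18, 34859823 to 34864984, plus strand), a zinc-finger transcription factor induced by growth factors and contraction, stood at 2.82, 5.09 and 3.99 CPM in sedentary WT and 140.4, 83.2 and 135 in exercised WT. In MKO it stood at 9.01, 4.07 and 7.18 at rest and 16.1, 33.0 and 27.4 after the run. The exercised groups did not overlap, and the highest MKO library lay well under the lowest WT library. Egr1 rose 30.1-fold in WT (log2 4.91 ± 0.37 SE, adjusted p = 2.23e-05) and 3.76-fold in MKO (1.91 ± 0.34, adjusted p = 0.00763), a difference of -3.00 (95% interval -4.05 to -1.94; unadjusted p = 5.30e-05).

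Slc7a5 (chromosome 8, 121881150 to 121907694, minus strand), the large neutral amino acid transporter that carries leucine into the cell, reached 10.9, 12.6 and 11.6 CPM in exercised WT against 5.61, 7.32 and 4.52 in exercised MKO from 1.34 to 2.48 and 2.0 to 3.13 at rest. It passed in both genotypes (2.61 and 1.24 on the log2 scale, adjusted p = 6.08e-05 and 0.0106), with a difference of -1.37 (95% interval -2.09 to -0.65). Sox9, a transcription factor of cartilage and tendon lineages, rose by 2.73 in WT and 1.31 in MKO, and Adamtsl2, a secreted glycoprotein of the microfibril matrix, by 3.24 and 1.78; both passed in both genotypes. Tmcc3 (difference -1.06) and the noncoding host gene Snhg15 (-2.55) passed in WT and had MKO values of 0.69 and 1.39 that did not pass (adjusted p = 0.0585 and 0.0876). Exercised WT and MKO libraries did not overlap for Egr1, Slc7a5, Sox9, Tmcc3 and Snhg15, and did overlap for Adamtsl2. These genes were picked by a small p for the difference, so such separation follows in part from the choice. The share of all genes tested that separate in this way was not counted, here or below. At rest the MKO libraries lay above every WT library for Sox9, Adamtsl2 and Snhg15, so the sedentary level enters the smaller fold of these 3.

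Mnt (chromosome 11, 74830920 to 74845725, plus strand), which pairs with MAX and opposes MYC at E-box sequences, rose in both genotypes and less in MKO. It stood at 8.53, 8.77 and 9.21 CPM in sedentary WT and 9.34, 7.21 and 7.66 in sedentary MKO, and at 43.5, 41.0 and 41.5 and 24.4, 28.2 and 24.4 after the run. All 3 exercised MKO libraries lay below the exercised WT range, while the sedentary groups overlapped. The rise was 2.25 in WT and 1.67 in MKO (adjusted p = 8.35e-07 and 1.40e-05; difference -0.58, 95% interval -0.90 to -0.26, unadjusted p = 0.00197).

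**Figure D3:**
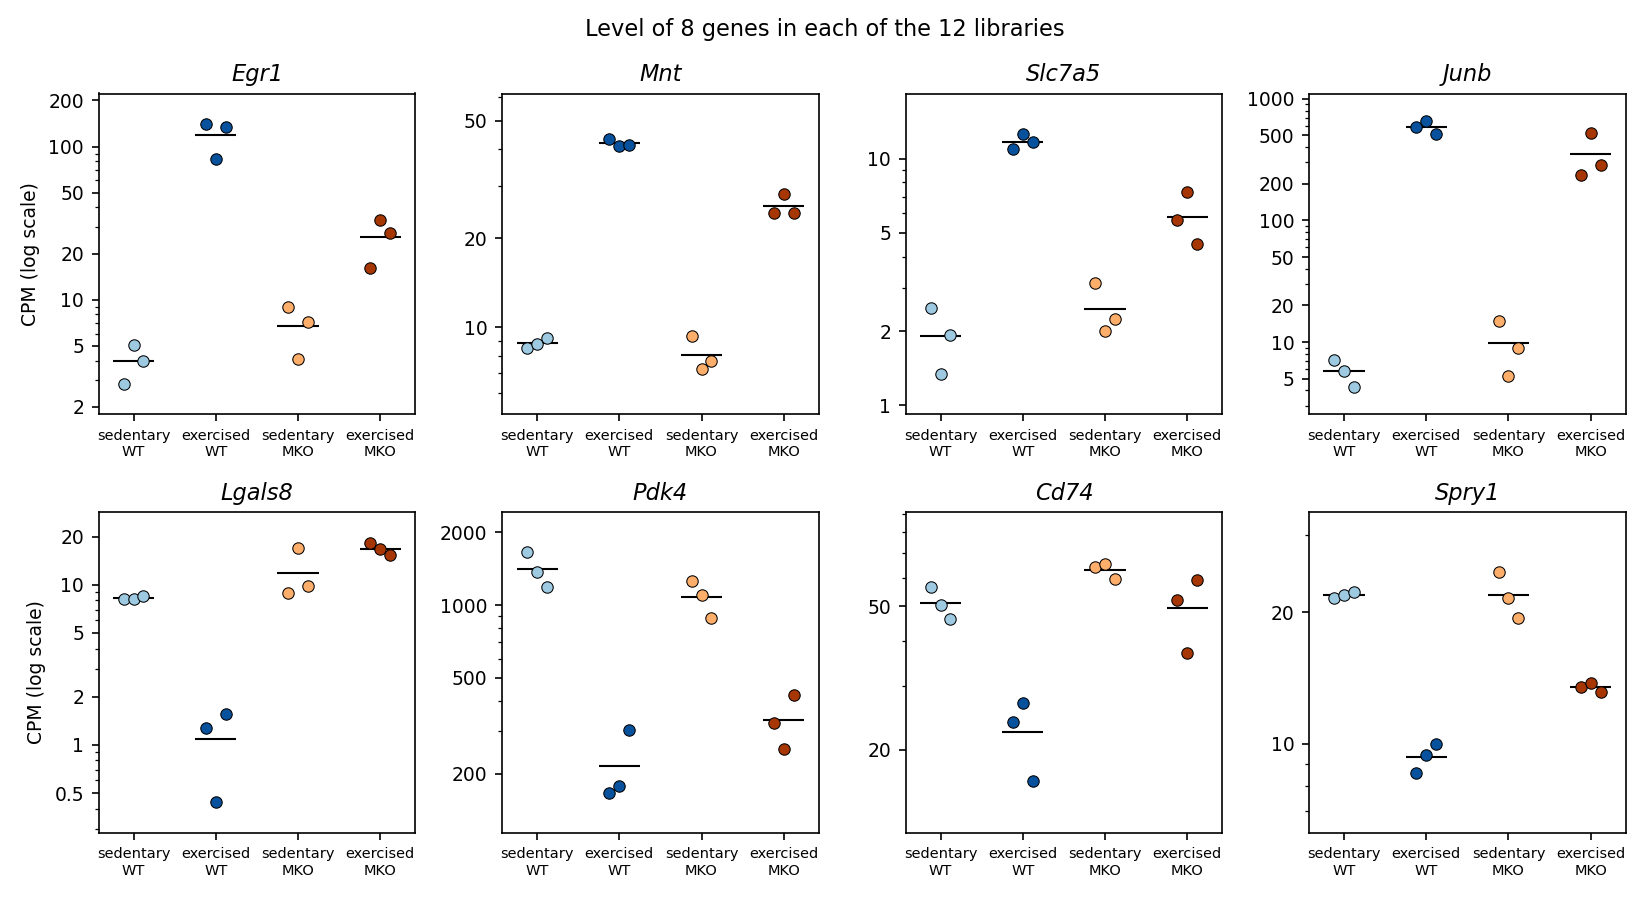
CPM of 8 genes in each library on log axes, points being libraries and bars group means (n = 3). In the upper row the exercised MKO points lie below the exercised WT points except for 1 Junb library; in the lower row exercised MKO lies above exercised WT except for overlapping Pdk4 libraries.

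Lgals8 (chromosome 13, 12439415 to 12464944, minus strand), which encodes galectin-8, a lectin that binds sugars exposed on damaged endosomes and lysosomes, had a fall in WT and a value of the other sign in MKO. It stood at 8.12, 8.10 and 8.46 CPM in sedentary WT and 1.27, 0.442 and 1.57 in exercised WT, against 8.87, 16.9 and 9.90 in sedentary MKO and 18.2, 16.6 and 15.3 in exercised MKO. Every exercised WT library lay below every other library of the study. Lgals8 fell in WT (-2.90 ± 0.34 SE on the log2 scale; adjusted p = 0.000310) and had 0.49 ± 0.25 in MKO, which did not pass (adjusted p = 0.392). The difference was 3.39 (95% interval 2.47 to 4.32; unadjusted p = 4.49e-06), with a range of 3.02 to 3.74 when each library in turn was left out. Lgals8 lies on the same chromosome as B230219D22Rik, 43.2 Mb away. It shares 155 exonic bases with Heatr1 on the opposite strand, and the sources used here do not say whether reads were counted by strand; the difference for Heatr1 was -0.28 (unadjusted p = 0.130). Of the 17 galectin and lysosome-damage genes tested, 9 had a positive difference and the median was 0.0062; no other member had an unadjusted p under 0.05.

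Apart from Tdp1, the remaining genes near the top with a positive difference were of 2 kinds. They either rose in MKO without a fall in WT that passed, or fell in WT with a smaller fall or a value of the other sign in MKO. In the first kind, Nkiras2, an inhibitor of NF-kappa-B signalling, stood at 8.87, 8.75 and 8.75 CPM in sedentary MKO and 16.4, 17.1 and 20.9 in exercised MKO, and at 18.9, 11.4 and 18.8 and 9.21, 8.04 and 16.5 in WT. It rose in MKO by 1.04 (adjusted p = 0.0434) and had -0.54 in WT (adjusted p = 0.244), and its sedentary MKO libraries lay below all sedentary WT libraries. Zcchc4, an RNA methyltransferase of the ribosome, Thpo, the platelet growth factor thrombopoietin, and Spout1, another methyltransferase-family gene, showed the same form: they rose in MKO by 0.65, 0.53 and 0.64 (adjusted p = 0.0218, 0.0178 and 0.0496) and had -0.34, -0.24 and -0.19 in WT (adjusted p = 0.156, 0.244 and 0.582). At rest Zcchc4 stood at 2.47, 2.87 and 2.90 CPM in MKO, below 4.82, 5.42 and 4.67 in WT, while after the run the genotypes overlapped; Thpo also lay below WT in every sedentary MKO library (4.53 to 5.47 against 6.74 to 7.16 CPM). In the second kind, Spry1, a feedback inhibitor of receptor tyrosine kinase signals, fell from 21.6, 21.9 and 22.2 to 8.57, 9.44 and 10 CPM in WT and from 24.8, 21.6 and 19.4 to 13.5, 13.8 and 13.1 in MKO; it passed in both (-1.23 and -0.70) with a difference of 0.53 (95% interval 0.23 to 0.83). Smg8, a regulator of nonsense-mediated decay, Prdx4, a peroxidase of the endoplasmic reticulum, and Zbtb43, a zinc-finger gene, fell in WT by 0.63, 0.65 and 0.69 (adjusted p = 0.0154, 0.0131 and 0.00166) and had 0.07, 0.07 and -0.19 in MKO (adjusted p = 0.898, 0.919 and 0.465). Tdp1, a DNA repair phosphodiesterase, passed in neither (-0.44 and 0.46). Among the negative values the mirror form was seen in Srr (serine racemase; 0.66 in WT and -0.65 in MKO), Yy2 (0.68 and -0.51) and the axon guidance gene Sema3a (0.82 and -0.66), none of which passed in either genotype. Thpo, Nkiras2, Spout1 and Srr share 239, 287, 379 and 1240 exonic bases with Chrd, Dnajc7, Endog and Tsr1 on the opposite strand. Yy2 shares 2867 exonic bases with Mbtps2 on the same strand, so its counts are uncertain.

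Immediate-early genes that rose with the run had the smaller rise in MKO in every case. Of the 36 measured of 39 listed, 30 had a negative difference, with a median of -0.65 against 0.0007 over all 14590 genes, of which 7282 were negative. In WT 22 rose and 1 fell, and in MKO 18 rose and 0 fell, where 4.2% of all genes tested rose in WT and 2.25% in MKO. The share was 23 of 23 members called as risers, where 76.9% of all risers did. Among the 131 shared responders with an averaged change above 2 log2 units, the smaller share was 86.3%. The list was drawn up with earlier results of these data known, and none of its members passed for the difference itself. Without sedentary MKO replicate 1, which held the highest sedentary levels of Egr1, Junb and Fosb, the median was -0.19 with 24 negative and 18 of 22 risers smaller. With all other single libraries left out the median lay between -0.81 and -0.45, and without 3 libraries together (replicate 3 of sedentary MKO, replicate 5 of exercised WT and replicate 4 of exercised MKO) it was -0.56.

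The AP-1 genes Junb and Fosb showed large rises in both genotypes. Junb, a JUN-family partner of FOS, stood at 7.09, 5.83 and 4.26 CPM in sedentary WT, 582, 660.3 and 509 in exercised WT, 15.0, 5.21 and 8.99 in sedentary MKO and 238, 523 and 287 in exercised MKO. Exercised MKO replicate 2 fell within the WT range and replicates 1 and 4 lay below it. The rises were 6.67 and 5.16 (adjusted p = 7.78e-06 and 7.82e-05; difference -1.51, 95% interval -2.63 to -0.38). Fosb reached 67.7, 55.4 and 66.1 CPM in exercised WT against 9.58, 26.3 and 7.67 in exercised MKO from under 1 CPM at rest, a rise of 7.50 against 4.91 (difference -2.59, 95% interval -5.17 to 0.0027, unadjusted p = 0.0502). Mafk, a small MAF partner, stood at 64.4 to 113 CPM in exercised WT against 39.5 to 48.3 in exercised MKO, without overlap, with a difference of -0.83. Of the nuclear receptor genes, Nr4a2 rose by 7.22 and 6.10, Nr4a3 by 5.38 and 4.47 and Nr4a1 by 2.68 and 2.38, with intervals of the difference of -2.37 to 0.13, -2.13 to 0.30 and -1.24 to 0.63. Without sedentary MKO replicate 1 the differences were -1.70 for Fosb, -0.74 for Nr4a2, -0.24 for Nr4a3 and -0.07 for Nr4a1. Junb and Mafk share 173 and 169 exonic bases with Prdx2 and Tmem184a on the opposite strand. Jun went the other way, chosen here after its values were seen: it fell in WT by 0.88 (adjusted p = 0.00990) and had -0.22 in MKO (adjusted p = 0.645).

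**Figure D4:**
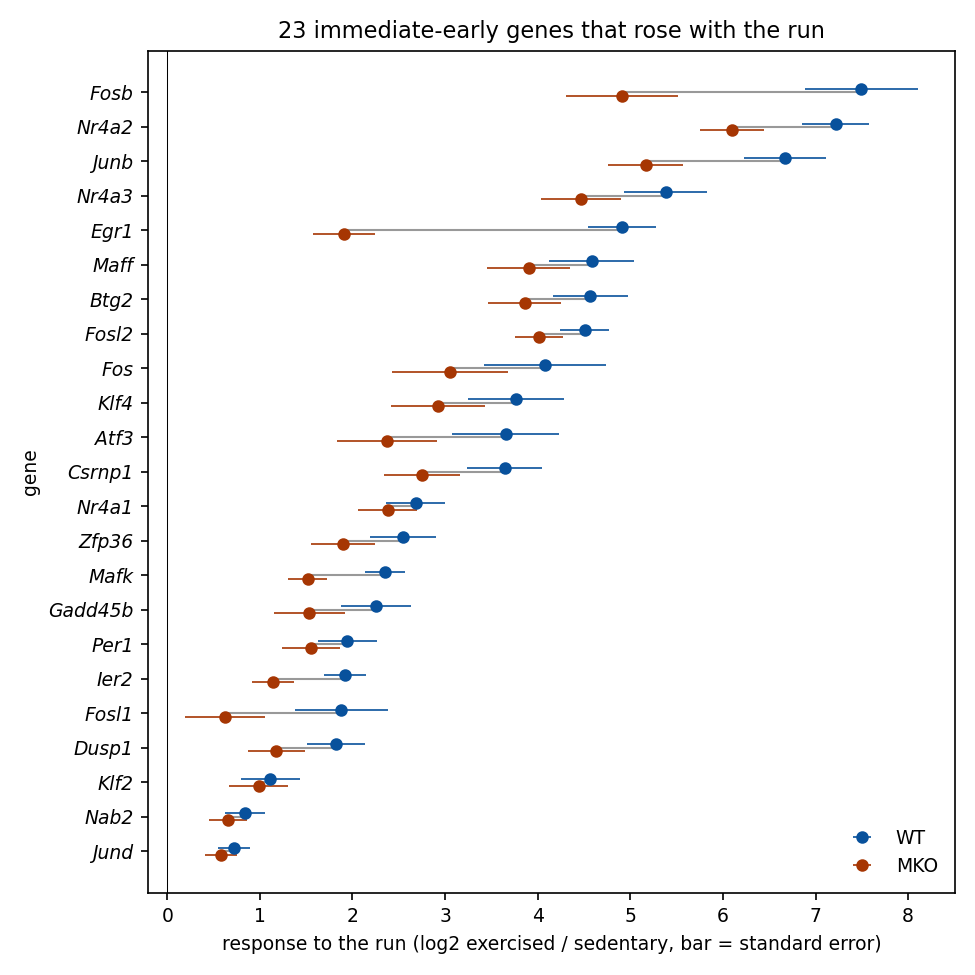
Response to the run (log2 exercised over sedentary) of the 23 immediate-early genes called for the averaged rise, in WT (blue) and MKO (brown); bars are standard errors of each response. Every brown point lies left of its blue point, with the widest gaps at Egr1 and Fosb (-3.00 and -2.59).

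Genes of cyclic AMP signalling and its CRTC and SIK branches had a median difference of -0.12 over 20 genes, 12 of them negative, and no direction held (0.0044 without exercised WT replicate 5). Sik1, a salt-inducible kinase that feeds back on CREB, rose by 4.29 in WT and 3.58 in MKO, and passed in both. Of 19 circadian clock genes 14 had a negative difference (median -0.39). Of their risers 5 of 6 rose less in MKO, where 76.9% of all risers did, so this count does not set the clock genes apart. The median response of the clock list was 0.39 in WT and 0.10 in MKO, and the median difference was -0.24, -0.20 and -0.22 when sedentary WT replicate 3, exercised WT replicate 5 or exercised MKO replicate 4 was left out. Cry2, a core repressor of the clock, stood at 82.8, 96.5 and 114 CPM in exercised WT against 51.2, 65.1 and 37.1 in exercised MKO, without overlap (difference -0.76, 95% interval -1.39 to -0.14). Bhlhe40, a repressor that binds E-boxes, rose by 1.32 in WT and 0.81 in MKO, and Ciart, which represses CLOCK and BMAL1, by 5.37 and 4.33, all of which passed. The sources used here do not give the hour at which each group was sampled.

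Ciart, Mnt and Mafk, which rose less in MKO, are shown with their start-site regions because each holds the E-box CACGTG, the palindrome that MNT with MAX, the BHLHE40 family and CLOCK with BMAL1 bind. The RefSeq promoter table (GRCm38.p6; 250 bases before to 50 after the start, 5′ to 3′ on the gene's strand) was searched for it, and capitals mark each match.
Ciart, chr3:95882179-95882478, minus strand: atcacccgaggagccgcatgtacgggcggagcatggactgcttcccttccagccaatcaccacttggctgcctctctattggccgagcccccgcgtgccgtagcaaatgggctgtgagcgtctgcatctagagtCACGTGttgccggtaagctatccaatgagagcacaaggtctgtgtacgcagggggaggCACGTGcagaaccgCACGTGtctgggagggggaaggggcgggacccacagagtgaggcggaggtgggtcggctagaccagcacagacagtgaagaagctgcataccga
Mnt, chr11:74830674-74830973, plus strand: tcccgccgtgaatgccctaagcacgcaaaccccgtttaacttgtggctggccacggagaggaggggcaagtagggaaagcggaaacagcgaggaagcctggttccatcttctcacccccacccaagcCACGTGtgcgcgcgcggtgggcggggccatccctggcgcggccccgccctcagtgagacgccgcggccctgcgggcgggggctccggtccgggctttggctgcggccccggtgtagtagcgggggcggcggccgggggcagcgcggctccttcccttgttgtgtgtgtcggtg
Mafk, chr5:139791286-139791585, plus strand: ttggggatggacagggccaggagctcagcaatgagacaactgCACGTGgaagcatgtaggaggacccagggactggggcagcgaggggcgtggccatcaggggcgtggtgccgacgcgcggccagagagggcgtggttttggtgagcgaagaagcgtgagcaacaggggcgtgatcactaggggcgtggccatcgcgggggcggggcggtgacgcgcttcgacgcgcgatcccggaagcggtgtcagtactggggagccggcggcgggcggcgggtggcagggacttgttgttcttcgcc
Ciart holds 3 matches and Mnt and Mafk 1 each. The same search found no match in Junb, Fosb, Nr4a1, Nr4a2, Nr4a3 and Cry2, which also had negative differences. Genes with a negative difference thus included some with the E-box in this window and some without it. Of the 23 immediate-early risers, 20 had an entry, and 6 of these (30%) held the E-box (Dusp1, Gadd45b, Klf4, Maff, Mafk and Per1) against 8.09% of 27025 genes in the table. The cyclic AMP response element TGACGTCA, also its own reverse complement, was found in 3 (15.0%; Btg2, Dusp1 and Maff) against 2.03%. Closer backgrounds held more matches, with the E-box in 11.8% of genes tested and 14.7% of shared risers and the other element in 3.55% and 7.60%. Of these sets, 9765 of 14590 and 645 of 908 genes had an entry. The shares of 30% and 15.0% rest on 6 and 3 genes and were not tested against any background. These are matches of letters within one window, not measured binding, and the motifs were not compared between genes that differed and genes that did not.

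Among genes of the switch between fat and glucose, targets of PPAR and FOXO factors, the fallers fell less in MKO. All 10 of the 10 members called as fallers had the smaller fall in MKO, where 69.7% of all fallers did. Of 28 members 23 had a positive difference (median 0.23), although the median response was -0.14 in WT and -0.19 in MKO. The median MKO minus WT difference over the list was -0.22 in sedentary and 0.04 in exercised muscle, so the sedentary level enters these differences. Pdk4, which encodes a kinase that inactivates pyruvate dehydrogenase, stood at 1664, 1365 and 1192 CPM in sedentary WT, 167, 178 and 305 in exercised WT, 1263, 1100.0 and 884 in sedentary MKO and 326, 253 and 426 in exercised MKO. Both genotypes fell far below rest, and the exercised groups overlapped at one library each. The responses were -2.70 in WT and -1.69 in MKO on the log2 scale (adjusted p = 0.000119 and 0.00400; difference 1.01, 95% interval 0.23 to 1.79). Cited2, a coactivator that restrains hypoxia signalling, gave 7.16, 6.71 and 7.46 CPM in exercised WT against 9.30, 9.76 and 10.5 in exercised MKO, without overlap, from 43.7 to 73.4 and 43.8 to 56.0 at rest (difference 0.69). Acot2, a mitochondrial thioesterase, fell by 1.57 in WT (adjusted p = 0.00665) and had -0.38 in MKO (adjusted p = 0.635). Angptl4, an inhibitor of lipoprotein lipase, had -3.28 and -1.85 (adjusted p = 0.00318 and 0.0632). Without sedentary MKO replicate 3, the library low in slow-fibre genes, the list median was 0.07 with 17 of 28 positive, though 10 of 11 fallers still fell less. Leaving out sedentary MKO replicate 1 or 2 gave 0.40 and 0.35, and leaving out replicate 4 of sedentary WT gave 0.37.

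Enzymes of fatty acid oxidation, nuclear-encoded respiratory chain subunits and ribosomal proteins held no member that passed for the run in either genotype. For fatty acid oxidation 25 of 25 differences were positive (median 0.26, with responses of -0.18 in WT and 0.08 in MKO). Its median MKO minus WT difference was -0.15 in sedentary and 0.09 in exercised muscle, so the sedentary level enters here as well. The median difference of the responses was 0.05 with 16 positive without sedentary MKO replicate 3. It was 0.09 when replicate 3 of sedentary WT was left out. For the respiratory chain 40 of 42 were positive (median 0.18), which became 26 positive (median 0.03) without sedentary MKO replicate 3 and 5 positive (median -0.11) without the 3 libraries named above, so that no direction held. The median was 0.28 and 0.28 without sedentary MKO replicates 1 and 2, and 0.10 without exercised WT replicate 5. Ribosomal protein genes were positive in 34 of 36 (median 0.16), with medians of 0.08 when exercised WT replicate 5 was left out and 0.10 when replicate 4 of exercised MKO was. No gene in these lists had an unadjusted p under 0.05.

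Thermogenesis genes, which the study's title brings into question, showed no common direction: 12 of 22 differences were positive and the median was 0.03. Sarcolipin (Sln), the peptide that uncouples the calcium pump and so releases heat, stood at 4.27, 0.803 and 1.44 CPM in sedentary WT, 1.13, 1.18 and 1.27 in exercised WT, 5.54, 2.94 and 6.34 in sedentary MKO and 3.97, 3.25 and 40.7 in exercised MKO. One library, exercised MKO replicate 4, lay far above the rest. The difference of 2.54 (95% interval -0.54 to 5.63; unadjusted p = 0.0977) was 0.40 without that library. Ucp3, the muscle uncoupling protein, fell in WT (-0.84, adjusted p = 0.00841) and had -0.41 in MKO (adjusted p = 0.258), with overlapping exercised libraries (189 to 216 against 205 to 234 CPM) and an interval of the difference of -0.08 to 0.95. The coactivator gene Ppargc1a had 1.15 in WT and 1.34 in MKO (interval of the difference -1.13 to 1.51), the pump genes Atp2a1 and Atp2a2 differed by -0.09 and -0.23 (intervals -0.52 to 0.33 and -1.95 to 1.5), and Foxc2 lay below the count minimum and was not tested.

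Of 30 heat shock genes 7 rose in WT and 6 in MKO (4.2% and 2.25% of all genes tested did), with a median difference of 0.02; Hspa1a, the inducible HSP70, rose by 2.68 and 2.13 (interval of the difference -1.32 to 0.23). In the oxidative stress list (12 of 21 positive, median 0.03), Srxn1, the sulfiredoxin that repairs peroxiredoxins, stood at 123, 139.6 and 154 CPM in exercised WT against 62.3, 140.1 and 95.2 in exercised MKO (difference -0.75, unadjusted p = 0.0440). Nqo1, a quinone reductase of the same list, had a difference of 0.33 (unadjusted p = 0.0283), with 18.6 to 20.6 CPM in exercised WT and all 3 exercised MKO libraries above that range. Of the mechanical and growth genes (9 of 25 positive, median -0.07), Xirp2, an actin-binding protein of the muscle attachment sites, rose in WT (0.82, adjusted p = 0.00726) and had 0.28 in MKO (adjusted p = 0.461). Differences were 11 of 23 positive, median -0.0091 for the amino acid stress response, where Slc7a5 was the member with an unadjusted p under 0.05, 13 of 24 positive, median 0.04 for cytokine signalling and 19 of 26 positive, median 0.06 for atrophy and autophagy. For glucose and glycogen they were 16 of 30 positive, median 0.02, with Hk2, the inducible hexokinase that phosphorylates entering glucose, rising by 1.19 in WT and 0.85 in MKO. Mitochondrially encoded genes gave 9 of 13 positive, median 0.19, slow-fibre genes 7 of 14 positive, median 0.08 and fast-fibre genes 5 of 14 positive, median -0.04. The mitochondrially encoded median was 0.04 without sedentary MKO replicate 3, and the slow-fibre median ran from -0.45 to 0.51 with single libraries left out. The medians of the heat shock, oxidative stress, growth, amino acid, cytokine, atrophy, glucose and fast-fibre lists each took both signs over the same omissions.

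Of the markers of other cell types, 4 of the 5 measured genes of the antigen presentation list passed as falls in WT and none in MKO. Over all genes tested, 3.96% fell in WT and 1.75% in MKO. Not passing in MKO does not show that there was no fall there. In bulk tissue fewer cells of a type and less RNA per cell cannot be told apart. Cd74, the chaperone of MHC class II molecules, stood at 56.4, 50.3 and 46.0 CPM in sedentary WT, 23.8, 27.0 and 16.4 in exercised WT, 64.4, 65.4 and 59.5 in sedentary MKO and 52.1, 37.1 and 59.2 in exercised MKO. Every exercised WT library lay below every library of the other groups, and exercised MKO replicate 2 was the lowest of its group. Cd74 fell in WT (-1.18, adjusted p = 0.00258) and had -0.35 in MKO (adjusted p = 0.425; difference 0.83, 95% interval 0.25 to 1.41). The class II chains H2-Ab1 and H2-Aa moved alike, with differences of 0.74 and 0.69; both passed in WT and not in MKO. Of the 5 measured markers of the list, 4 had a positive difference and 1 a negative one. The median difference was 0.72, 0.48 without exercised MKO replicate 4 and 0.36 without the 3 libraries named above. Flt3, Xcr1 and Ciita were below the count minimum. Of 13 macrophage markers 12 were positive (median 0.48; WT -0.69, MKO -0.24), and no member had an unadjusted p under 0.05; the median was 0.29, 0.25 and 0.79 when sedentary WT replicate 3, exercised MKO replicate 4 or sedentary MKO replicate 3 was left out. The mean log2 CPM of the macrophage list was 3.12, 2.11 and 3.11 in exercised MKO replicates 1, 2 and 4, 1.75 to 1.94 in exercised WT, 2.24 to 2.57 in sedentary WT and 2.78 to 3.20 in sedentary MKO. The MKO libraries lay above WT at rest as well, and replicate 2 was nearest to exercised WT in these markers as in the responders; the part of such cells in the differences above was not tested.

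Of the fibro-adipogenic genes 9 fell in WT and 7 in MKO, and of the matrix genes 8 and 3 (3.96% and 1.75% of all genes tested did), with median responses of -0.81 and -0.84 in WT and -0.62 and -0.68 in MKO. Pdgfra, the receptor that marks fibro-adipogenic progenitors, stood at 13.3, 16.2 and 13.5 CPM in sedentary and 4.32, 4.28 and 5.37 in exercised WT, and at 18.1, 16.5 and 15.5 and 8.01, 6.14 and 7.39 in MKO. It fell in both, without overlap between the exercised groups (difference 0.41, 95% interval -0.0054 to 0.82). The list differences were 10 of 12 positive, median 0.15, and 16 of 20 positive, median 0.14; without the 3 libraries named above 6 and 12 were positive, and leaving out single libraries gave medians of 0.07 to 0.28 and 0.02 to 0.35. Red blood cell genes had a negative difference of the responses (7 of 7 negative, median -0.48) while lying higher in MKO than in WT in both states (median 0.91 sedentary and 0.41 exercised), from sedentary MKO levels of 314 to 569.9 CPM for the globin gene Hbb-bs against 108 to 394 in sedentary WT, and this median was -0.29, -1.32 and -0.12 without sedentary WT replicates 1, 3 and 4 in turn. Endothelial markers were split (5 of 12 positive, median -0.07): Flt1, a VEGF receptor, rose in WT (0.76) and had 0.16 in MKO (adjusted p = 0.0207 and 0.761), and Cldn5, a tight-junction claudin, rose by 1.62 and 0.95. Schwann cell markers turned from -0.28 to 0.54 without sedentary MKO replicate 1, so no direction held. The others gave 8 of 12 positive, median 0.09 (smooth muscle and pericytes), 2 of 5 positive, median -0.37 (tenocytes), 2 of 6 positive, median -0.59 (adipocytes), 6 of 10 positive, median 0.15 (neuromuscular junction) and 3 of 10 positive, median -0.12 (satellite cells). With single libraries left out these 5 medians ran from -0.09 to 0.24, -0.57 to 0.05, -1.24 to -0.06, 0.03 to 0.34 and -0.31 to 0.0088 in that order, and that of the endothelial list from -0.15 to 0.07. None of the 10 listed markers of T, B and NK cells and the 7 of neutrophils reached the count minimum.

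**Figure D5:**
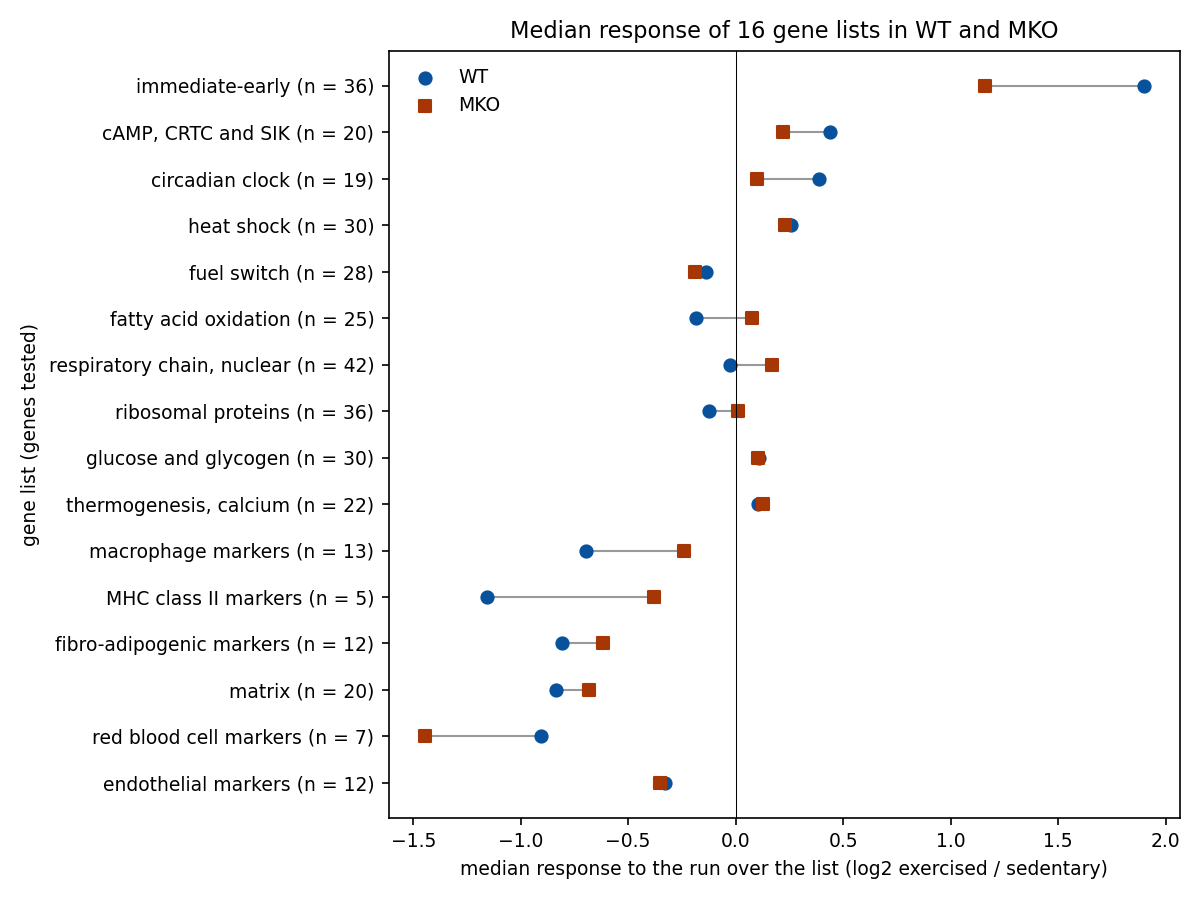
Median response to the run over each of 16 gene lists in WT (circles) and MKO (squares), as log2 exercised over sedentary, with the number of genes tested in brackets. The widest gaps are those of immediate-early, MHC class II, red blood cell and macrophage genes; the fatty acid oxidation and respiratory chain differences shrink without sedentary MKO replicate 3 (medians 0.05 and 0.03), and the latter turns to -0.11 without 3 libraries together.

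Larger responses in MKO were fewer. Of the 531 responders in that class, 8 had an unadjusted p under 0.05, against 156 of the 1437 in the smaller class. Of all genes tested, 3.71% did. Arhgap1, Abcb1b and Rnf26 were chosen after their values were seen. Arhgap1, a GTPase-activating protein for CDC42, went from 3.92 ± 0.974 to 2.52 ± 0.456 CPM (mean ± SD, n = 3) in WT, which did not pass (adjusted p = 0.163), and fell from 5.07 ± 0.539 to 1.25 ± 0.520 in MKO (adjusted p = 0.00186; difference -1.37, unadjusted p = 0.00330). Abcb1b, a drug efflux transporter, had -0.14 in WT and fell in MKO (-0.60, adjusted p = 0.00987), and Rnf26, a ubiquitin ligase of the endoplasmic reticulum, rose by 1.20 and 1.68. Chodl, a membrane lectin, had -0.13 in WT and fell in MKO (-0.75, adjusted p = 0.0315).

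Several of the largest averaged responses belonged to genes with few counts in one state. Arg1 (arginase) and Gnat1 (a transducin subunit) had no counts in any sedentary library; after the run Arg1 stood at 0.709, 1.47 and 1.57 CPM in WT and 1.16, 0.961 and 0 in MKO, and Gnat1 at 0.779, 1.03 and 1.42 and 0.410, 0.739 and 0.717. Gnat1 levels after the run did not overlap between the genotypes, but only narrowly, with 11, 14 and 19 counts in WT and 6, 10 and 10 in MKO. Those of Arg1 and of C2cd4b (1.94 to 2.98 and 0.821 to 3.25 CPM) did overlap. Of the strongest fallers, the Toll-like receptor adaptor gene Tril and the antiviral gene Rsad2 fell in both genotypes (-2.82 and -2.49, and -2.45 and -2.36), with intervals of the difference of -0.59 to 1.25 and -0.85 to 1.03. The glycosyltransferase gene B3gnt9 and the T-cell receptor chain gene Cd247 had -3.37 and -2.24, and -2.95 and -1.83 (WT adjusted p = 0.00606 and 0.0113, MKO 0.0766 and 0.0804), at under 0.5 CPM in exercised WT. Sco2, a copper chaperone of cytochrome oxidase, had no counts in sedentary WT replicate 1 and in all exercised WT libraries and 2.72 to 4.01 and 1.92 to 2.87 CPM in sedentary and exercised MKO; the other sedentary WT libraries had 2.95 and 2.34. Sco2 shares 856 exonic bases with Tymp on the same strand and 829 with Ncaph2 on the opposite strand, B3gnt9 shares 416 with a predicted gene and Cd247 3007 with Pou2f1.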

How the data were processed

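Whole-number read counts per Ensembl gene were deposited by the authors for 12 gastrocnemius libraries, replicates not pooled. Per the submitters' processing notes the tools were HISAT2 2.2.1, StringTie 2.1.4, DESeq2 1.40.2, SAMtools 1.9 and FastQC 0.12.1 under R 4.3, on GRCm38.p6 or mm10; the part of each is unstated. The sources used here do not give the counting tool or strand setting. The labels' protocol speaks of 18 libraries; the 12 of this series are analysed here. One column name spelt the replicate tag differently and was taken as exercised MKO replicate 4. Within groups, no pair of libraries matched within counting noise (pairs across groups were not compared). 0.0915% of counts fell on 970 identifiers without a symbol. Genes with at least 10 counts in 3 or more libraries were fitted over all 12 libraries with 4 group means (edgeR 4.0.16, TMM scaling, quasi-likelihood test, Benjamini-Hochberg adjustment at 0.05; R 4.3.3, limma 3.58.1, Python 3.11.15). DESeq2 1.42.0 and limma-voom, other scalings and filters, the replicate block and leaving out each library were alternatives. CPM values use TMM library sizes; list levels use log2 CPM with a prior count of 2. Positions and overlaps are from GENCODE M21. The text names the 10 smallest p-values each way and the 8 largest averaged responses each way at 1 CPM or more in a group mean, up to 3 members of each list by p, and 16 fixed genes; genes without a proper name are counted only. Some genes that the rule picks are not reported here. The lists (19 pathway, 14 cell type), the members and the rule were chosen with earlier results of these data known.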

Additional observations from a re-analysis of the deposited data

How the results depend on the processing

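The count of genes with a different response was 0 by edgeR, 3 by DESeq2 (321 at an unadjusted p under 0.05), 4 by limma-voom, 1 (Lgals8) with total counts as library size, and 0 to 3 with 1 library left out. It was 2 without replicate 3 of sedentary MKO, replicate 5 of exercised WT and replicate 4 of exercised MKO, an alternative chosen after seeing the data. Median-of-ratios scaling, the 3 other filters on low counts and the replicate block left it at 0. The averaged response called 1370 to 2717 genes over all alternatives. The percentage with a smaller response in MKO, 73.0%, was 63.8% with total counts, 69.3% without those 3 libraries, 87.5% and 64.1% for genes chosen in WT or MKO alone, and 63.3% to 75.8% with 1 library left out. The count in WT was 808 to 1301 and in MKO 319 to 629 with 1 library left out. With the replicate number as a block, the smaller percentage was 76.9% and the counts were 1370 (averaged), 594 (WT) and 360 (MKO). The numbers carry no pairing in the labels, and of 10 same-numbered pairs none had deviations correlated above 0.1 (r from -0.15 to 0.07). Single-gene differences that reversed were those of Atp2a1 (-0.20 to 0.0381 with 1 library left out, 0.00700 without the 3), Atp2a2 (-0.73 to 0.13, and 0.25 by limma-voom), Ppargc1a (-0.12 to 0.94), Rsad2 (-0.23 to 0.33) and Tril (-0.0029 to 0.63); the cause was not tested. The depth limited genes under about 1 CPM, such as Fosb at rest, Arg1, Gnat1 and Cd247, whose fold changes depend on a few counts. Sco2 differed from these, with either 0 counts or 26 to 60 counts in a library. The cause of that pattern was not tested.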
